A study of Felis catus with 15 samples.

Results

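The 7 genes described here are CRISP1, PATE3, CES5A, CLPSL2, CD52, ADAM7 and ADAM28. All are listed as encoding secreted or membrane proteins that the epididymis places on, or around, passing sperm, and only their transcripts were measured here. They were taken by their domestic cat (Felis catus) symbols and matched to gene identifiers in the deposited count table, where all 7 were present among 38995 genes. The tissue was the epididymal corpus, which lies between the caput and the cauda, and each of 3 groups held 5 RNA-seq libraries: explants cultured with extracellular vesicles (culture+EVs), explants cultured without them (culture), and fresh tissue. The vesicles were those of the caput, where sperm first enter the duct, and the study asked what they do to the transcriptome of the explants. The labels state no breed, genotype or age, and no length of culture or vesicle dose. Library names mark fresh tissue D0, culture D3 and culture+EVs D3EV, a code that no source used here explains. The labels do not say that libraries came from separate animals, so p-values measure only the spread between these samples. The 7 genes were chosen by symbol with their log2 fold changes of culture against fresh tissue already known, so their values in both comparisons with fresh tissue are a description and carry no test.

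Sperm leave the testis unable to fertilise and mature while they pass along the epididymal duct. Principal cells of the duct lining secrete proteins into the lumen, some of which bind the sperm surface. Others carry a lipid (GPI) anchor or a membrane span and reach sperm by way of vesicles called epididymosomes. The set of proteins made differs along the duct, and in rodents many of the genes depend on androgen and on factors in the luminal fluid from the testis.

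Total counts ran from 17308832 to 27420218 per library in culture+EVs, from 19308190 to 25454399 in culture and from 17751507 to 24841100 in fresh tissue. Of the 38995 genes, 18038 passed the filter on low counts, all 7 described here among them. Levels are in CPM, counts scaled to a common library size with the TMM factors of edgeR, and since they are not corrected for transcript length they are compared between libraries, not between genes. The library culture 3 stood apart, with 0.179% of its counts in mitochondrially encoded genes against 6.23 to 7.48% in the other 4 cultures, so the culture values of the 7 genes are given with and without it. For the other genes and lists, values without it are given in one place, after the neighbouring genes. Floors and intervals on counts cover counting error only.

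CRISP1 (gene 101082060) encodes a cysteine-rich secretory protein that coats sperm in the epididymis and, in rodents, takes part in binding to the egg. It had 2014, 1767, 2668, 3104 and 2108 CPM in culture+EVs libraries 1 to 5, 2069, 2225, 596, 2833 and 1777 CPM in culture libraries 1 to 5, and 8873, 8652, 7861, 7014 and 9606 CPM in fresh libraries 1 to 5. Every explant library lay below every fresh library, and culture 3 lay far below the other cultures. The log2 fold change was -2.14 ± 0.31 (SE) for culture against fresh, 4.42-fold lower, and -1.85 ± 0.31 for culture+EVs against fresh, 3.60-fold lower. Without culture 3 the culture value was -1.91. Library 4 had the highest level in culture+EVs and in culture and the lowest in fresh tissue, so its same-numbered difference was the smallest of the 5 in both comparisons with fresh tissue.

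PATE3 (gene 101086250) encodes a small cysteine-rich protein of the Ly6/uPAR fold, in a family named for its expression in prostate and testis. Its levels were 7.03, 4.12, 2.99, 0.472 and 6.54 CPM in culture+EVs and 8.23, 10.6, 0, 1.96 and 4.43 CPM in culture, against 1569, 1701, 908, 1535 and 964 CPM in fresh tissue. The explants kept a trace of the transcript, and the groups did not overlap with fresh tissue. Fitted log2 fold changes were -8.04 ± 0.95 for culture against fresh and -8.30 ± 0.96 for culture+EVs against fresh. Culture 3 had no PATE3 count, which at its depth allows up to 0.156 CPM, and without it the culture value was -7.72.

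CES5A (gene 445455, also called CES7) encodes cauxin, a carboxylesterase best known in cats as a urinary protein of the kidney and secreted into the epididymal lumen in several mammals. It had 147, 228, 621, 64.1 and 651 CPM in culture+EVs, 131, 374, 686, 226 and 515 CPM in culture, and 422, 2870, 1540, 769 and 2923 CPM in fresh tissue. Levels varied within each group: the highest library exceeded the lowest 10.2-fold in culture+EVs, 5.22-fold in culture and 6.93-fold in fresh tissue. The explant and fresh ranges overlapped, because fresh 1 lay below several explants, yet in all 5 same-numbered comparisons each explant was below its fresh counterpart. Libraries 1 and 4 were the lowest in every group. The log2 fold change was -2.14 ± 0.67 for culture against fresh, 4.41-fold lower, and -2.32 ± 0.67 for culture+EVs against fresh, 4.98-fold lower. Culture 3 was the highest culture for this gene, unlike CRISP1 and PATE3, and without it the culture value was -2.44. With culture 3 kept and the replicate number as a block, a pairing taken from these data, the SE was smaller. The values were then -2.06 ± 0.36 for culture against fresh and -2.41 ± 0.37 for culture+EVs against fresh.

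CLPSL2 (gene 101090519) encodes a protein related to colipase, the cofactor of pancreatic lipase. It had 5, 0, 0, 0 and 2 counts in culture+EVs libraries 1 to 5 and 3, 0, 0, 0 and 0 counts in culture libraries 1 to 5, against 704, 748, 823, 635 and 691 counts in fresh libraries 1 to 5. In fresh tissue it was the steadiest of the 7, at 30.0 to 36.7 CPM, and 7 of the 10 explant libraries held no count of it. Scaled for depth, the summed fresh count exceeded the summed culture count 1238-fold (95% counting interval 423 to 6006, on 3 counts in culture). It exceeded the summed culture+EVs count 571-fold (277 to 1421, on 7 counts in culture+EVs). Without culture 3 the ratio to culture was 1022 (349 to 4959). Without culture 1 no count was left, so the level in the other cultures was at least 954-fold lower than in fresh tissue, against a floor of 3 counts. That bound leaves out the only culture with a count and does not hold for all 5, whose interval reached down to 423. Without culture+EVs 1 the ratio to culture+EVs was 1528 (423 to 12618), on 2 counts.

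CD52 (gene 101085645) encodes a very short GPI-anchored glycopeptide that epididymal cells shed and sperm take up, and that lymphocytes and monocytes also carry. Its levels were 103, 28.5, 59.4, 31.8 and 64.0 CPM in culture+EVs and 110, 84.2, 28.6, 38.1 and 58.3 CPM in culture, against 7228, 9562, 6011, 8910 and 6802 CPM in fresh tissue. No explant library reached the lowest fresh library. Log2 fold changes were -6.91 ± 0.49 for culture against fresh, 120-fold lower, and -7.07 ± 0.49 for culture+EVs against fresh, 134-fold lower. Leaving out culture 3, the lowest culture, gave -6.72.

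ADAM7 (gene 101082307) encodes a membrane protein of the disintegrin and metalloprotease family that lacks the catalytic zinc site and, in the mouse, moves from the epididymal epithelium to sperm. It had 131, 98.8, 114, 16.4 and 161 CPM in culture+EVs, 121, 169, 73.0, 57.7 and 98.5 CPM in culture, and 2269, 2531, 4212, 2779 and 3071 CPM in fresh tissue. Explants and fresh tissue did not overlap, and culture+EVs 4 was far below the other vesicle-treated explants. The log2 fold change was -4.84 ± 0.50 for culture against fresh and -4.83 ± 0.50 for culture+EVs against fresh, 28.6-fold and 28.5-fold lower. Without culture 3 the culture value was -4.73.

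ADAM28 (gene 101082815) encodes a metalloprotease of the same family, known from lymphocytes and from the epididymis. It was low in all groups, at 1.18, 2.3, 2.06, 5.59 and 5.07 CPM in culture+EVs, 1.77, 1.10, 0, 8.92 and 2.48 CPM in culture, and 0, 0.120, 11.4, 0.750 and 0.979 CPM in fresh tissue. Fresh 3, with 260 counts, was the highest of all 15, while the other 4 fresh libraries held 0, 3, 13 and 19 counts. Those 4 lay below every culture+EVs library and below every culture library but culture 3, which had none. The zeros allow up to 0.156 CPM in culture 3 and 0.132 CPM in fresh 1. The log2 fold change was 0.10 ± 1.18 for culture against fresh and 0.28 ± 1.18 for culture+EVs against fresh. Without fresh 3 these values were 2.66 and 2.83, without culture 3 the culture value was 0.43, and without culture 4 it was -1.0. In same-numbered libraries ADAM28 was higher in the explant in 4 of 5 for both comparisons, the exception being library 3.

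**Figure D1:**
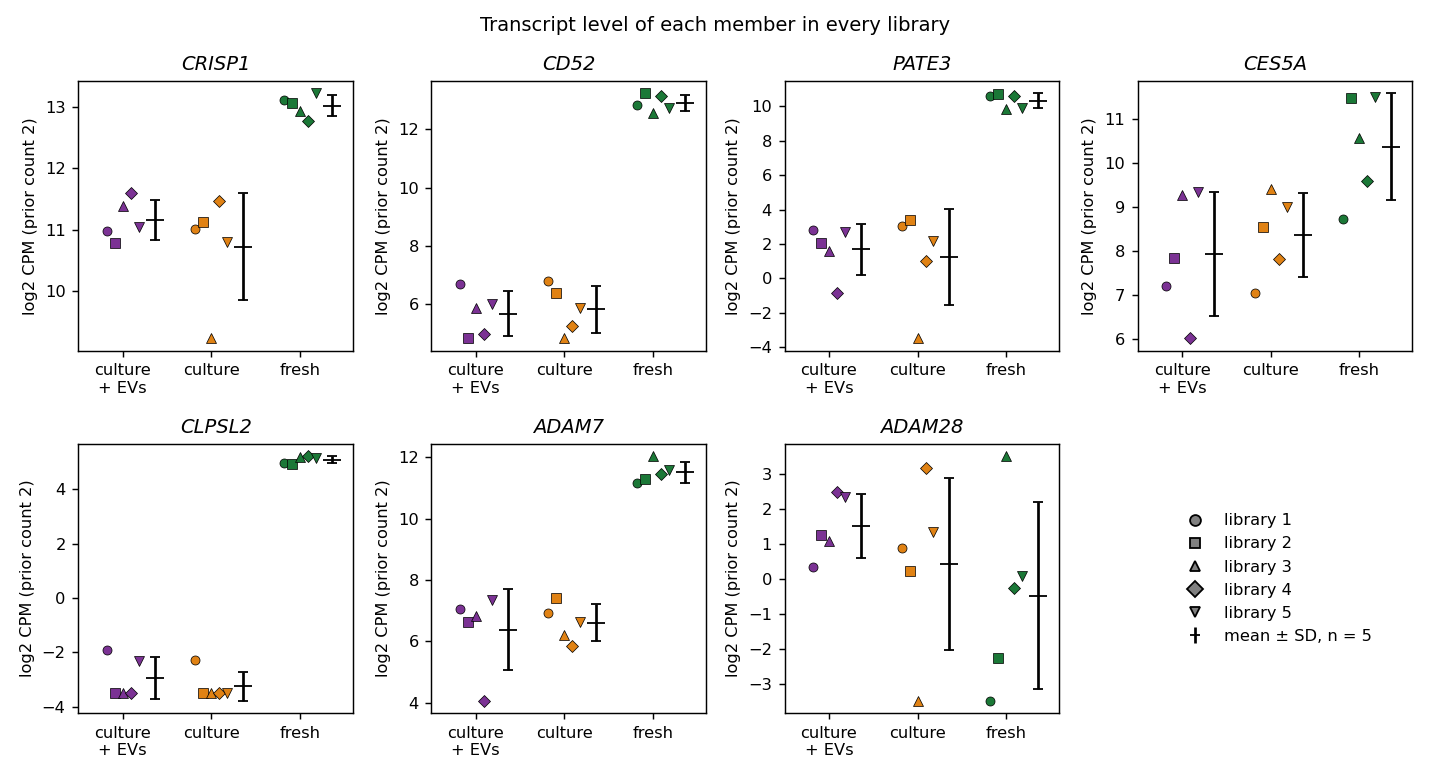
Level of each of the 7 genes in every library, as log2 CPM with a prior count of 2, for culture+EVs (purple), culture (orange) and fresh tissue (green); symbols mark libraries 1 to 5 and bars give the mean ± SD (n = 5). Explants lie below all fresh libraries for CRISP1, CD52, PATE3, CLPSL2 and ADAM7, overlap with fresh for CES5A, and show no such order for ADAM28.

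By the rule used for all genes (edgeR quasi-likelihood test, Benjamini-Hochberg adjusted p under 0.05), 6 of the 7 were lower in culture than in fresh tissue, where 54.3% of the 18038 genes changed, 28.7% being higher and 25.6% lower. In culture+EVs against fresh tissue the same count was 6 of 7, where 52.9% of genes changed, 27.4% being higher and 25.5% lower. These counts follow from how the genes were listed and nothing is read from them. Together the 7 genes took 0.209 to 0.350% of all counts in culture+EVs libraries, 0.130 to 0.311% in culture libraries and 2.05 to 2.54% in fresh libraries. The sizes differed among the genes. Ordered over all 18038 genes from the most negative log2 fold change of culture against fresh, CLPSL2 was number 5, PATE3 28, CD52 68 and ADAM7 208, while CRISP1 was number 1380 and CES5A 1384. The place of CLPSL2 rests on a fitted value that depends on the prior count, with 3 counts in culture, so no size is read from it. In bulk tissue, fewer cells of a type and less RNA per cell cannot be told apart. The markers of principal cells summed to 230 to 428 CPM in culture+EVs, 226 to 396 CPM in culture and 1197 to 1500 CPM in fresh tissue, and 7 of the 9 tested fell in each comparison with fresh tissue while 1 rose. Their part in the levels of the 7 genes was not tested.

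The vesicle comparison sets explants against explants. It shares the culture libraries with the comparison known when the genes were listed, and its filter and its estimate of the spread use the fresh libraries too. CLPSL2 passed the filter only through fresh tissue and could not have been called here. None of the other 6 genes passed the test (all adjusted p = 1, edgeR quasi-likelihood test with Benjamini-Hochberg adjustment), and none of the 18038 genes did (0%), while 183 (1.01%) had an unadjusted p under 0.05, none of them among the 6. A calibrated test with no effect gives about 1 in 20 such p-values, so this fit may call too few genes. It left out the replicate number, though same-numbered libraries of culture+EVs and culture deviated together from their group means (r 0.18 to 0.60). DESeq2, limma-voom and a fit with the replicate number as a block also called 0 genes. CRISP1, the gene of the 6 with the smallest unadjusted p (0.340), averaged 2332 ± 543 CPM in culture+EVs and 1900 ± 825 CPM in culture (SD, n = 5 each). Its log2 fold change was 0.30 ± 0.30 (SE), with a 95% interval of -0.34 to 0.93, and it was higher with vesicles in 3 of 5 same-numbered libraries. Without culture 3 the CRISP1 value was 0.07 ± 0.18.

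The intervals show what size of vesicle effect the data could have missed. For CD52 the log2 fold change was -0.16 (95% interval -0.96 to 0.65), on means of 57.3 ± 30.0 CPM in culture+EVs and 63.9 ± 33.6 CPM in culture. ADAM7 averaged 104 ± 54.3 CPM in culture+EVs and 104 ± 43.8 CPM in culture, with a log2 fold change of 0.00 (-0.91 to 0.92). A vesicle effect of up to about the upper bound, 1.89-fold for ADAM7 and 1.91-fold for CRISP1, lies within these intervals. They were wider in this fit for 3 other genes: -0.18 (-1.54 to 1.19) for CES5A, -0.26 (-1.83 to 1.31) for PATE3 and 0.17 (-2.34 to 2.68) for ADAM28. CLPSL2 was near the floor in both cultures, with 7 counts in all in culture+EVs and 3 in culture, so no fold is given. With the replicate number as a block, the pairing that same-numbered libraries of these groups show, CES5A had -0.36 ± 0.35 (SE), against an SE of 0.64 without the block, so its width depends on that choice. Without culture 3 the values were -0.34 for CD52, -0.10 for ADAM7, 0.13 for CES5A, -0.58 for PATE3 and -0.15 for ADAM28.

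**Figure D2:**
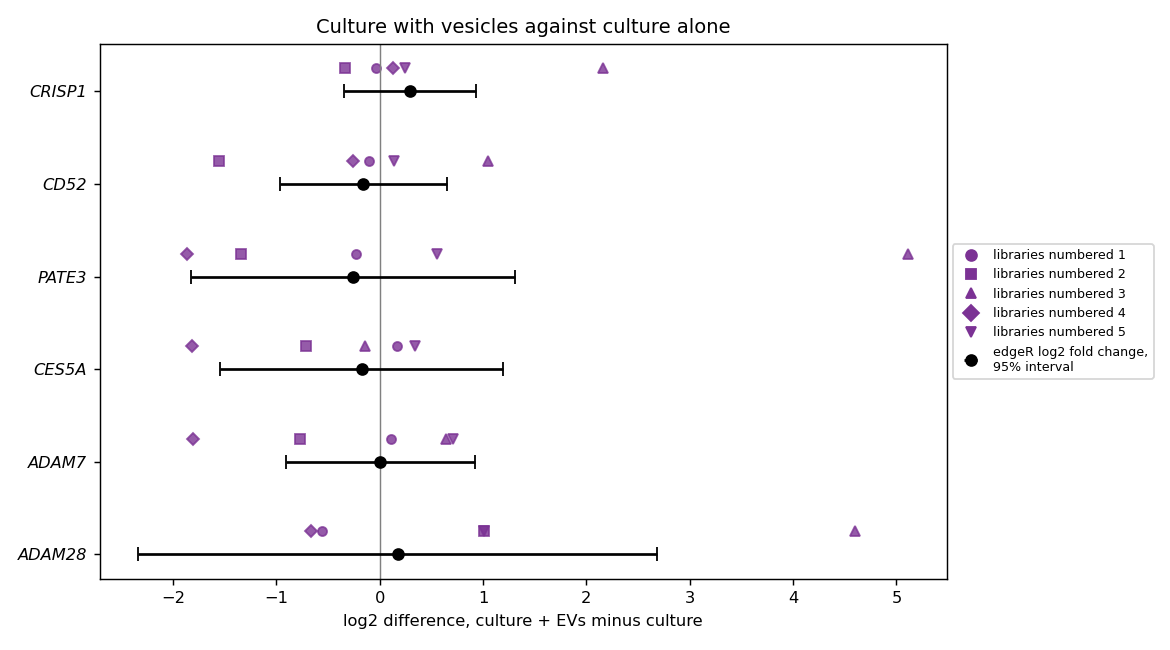
Log2 difference of culture+EVs minus culture for 6 of the genes: black points and bars give the edgeR log2 fold change with its 95% interval, and purple symbols give each same-numbered difference in log2 CPM. Every interval spans 0, and the rightmost symbols of CRISP1, PATE3 and ADAM28 belong to number 3, whose culture library had 596 CPM of CRISP1 and no count of PATE3 or ADAM28.

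The 7 genes did not vary alike among replicate libraries. The median gene tested had an SD of log2 CPM of 0.288 in culture+EVs, 0.541 in culture and 0.291 in fresh tissue. CES5A varied more than 97% of tested genes in culture+EVs and 95.2% in fresh tissue, and ADAM28 more than 99.8% in fresh tissue. In culture the values were 99.9% for PATE3, 99.7% for ADAM28, 82.9% for CES5A and 79.1% for CRISP1. These percentages compare genes of all levels, so counting error adds to the spread of low genes. ADAM28 ran from 0 to 260 counts in fresh libraries, and PATE3 had 12 counts in culture+EVs 4. CRISP1 and CLPSL2 were among the steadier genes in fresh tissue, with more spread than 28.9% and 19.2% of tested genes. In culture+EVs, PATE3 and ADAM7 joined CES5A at the variable end, with more spread than 97.5% and 96.1% of genes. Culture+EVs 4 was the lowest of its group for PATE3, CES5A and ADAM7 and the highest for CRISP1 and ADAM28.

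**Figure D3:**
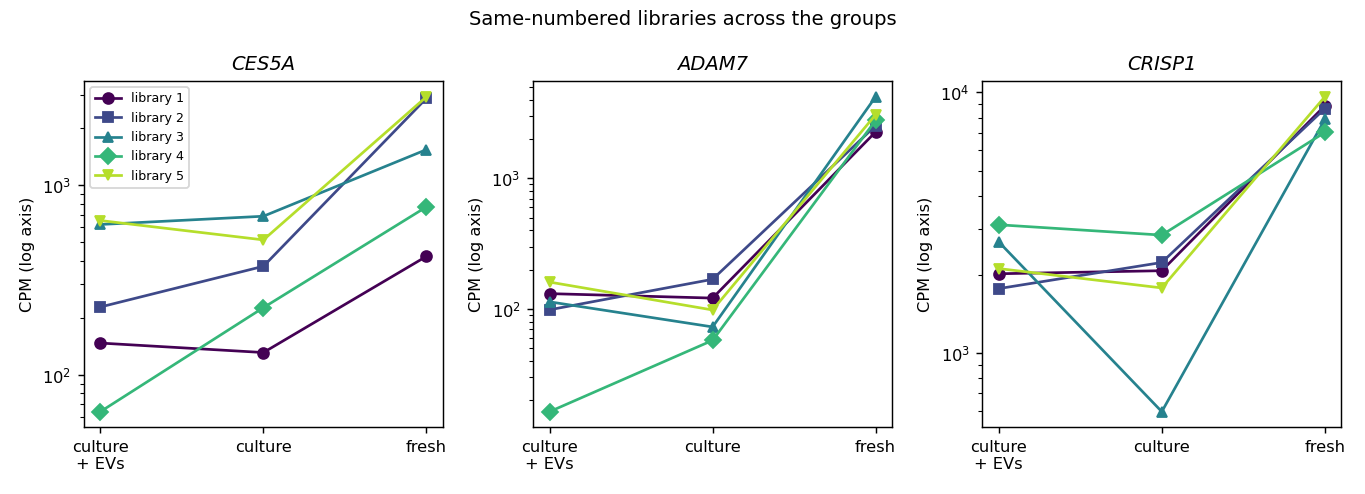
CES5A, ADAM7 and CRISP1 in CPM on log axes, with lines joining the libraries that share a number across culture+EVs, culture and fresh tissue. For CES5A, libraries 1 and 4 are the lowest in every group; for ADAM7, library 4 is the lowest in both cultures but not in fresh tissue; for CRISP1, culture 3 lies at 596 CPM.

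CD52 and ADAM28 are also expressed by blood cells, so lymphocyte markers were set beside them. The 18 markers together gave 15.4 to 34.2 CPM in culture+EVs, 14.7 to 34.2 CPM in culture and 24.6 to 64.5 CPM in fresh tissue. Of the 11 tested, 4 fell and 1 rose in each comparison with fresh tissue. PTPRC, which encodes the pan-leukocyte antigen CD45, had 1.53 to 4.52 CPM in culture+EVs, 2.08 to 7.22 CPM in culture and 6.52 to 16.8 CPM in fresh tissue. It fell in culture (log2 fold change -1.18 ± 0.39, adjusted p = 0.0198) and in culture+EVs (-1.59 ± 0.40, adjusted p = 0.00356, edgeR). CD3E, part of the T cell receptor complex, ranged from 0.590 to 4.08 CPM in culture+EVs, 0.640 to 3.70 CPM in culture and 1.28 to 5.21 CPM in fresh tissue, and MS4A1, the B cell marker CD20, was at 0 in 9 of the 15 libraries with at most 5 counts. The lowest fresh CD52 level, 6011 CPM, and the highest ADAM28 level, 11.4 CPM, were both in fresh 3, which had the lowest lymphocyte marker sum of the fresh libraries. Fresh 5, with the highest sum, had the next lowest CD52 level, 6802 CPM, and fresh 4, with the next lowest sum, had 8910 CPM. In fresh 1 and fresh 2 the sums were 35.8 and 47.0 CPM, beside CD52 levels of 7228 and 9562 CPM. The part of lymphocytes in the CD52 and ADAM28 differences was not tested.

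**Figure D4:**
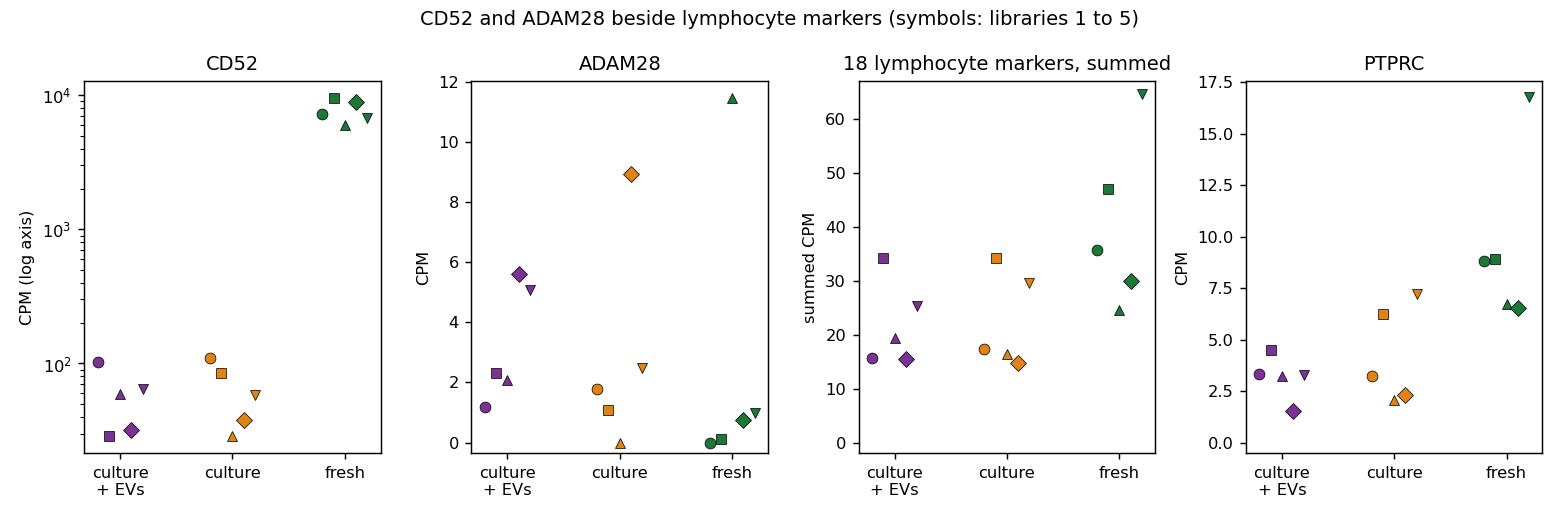
CD52 (log axis), ADAM28, the sum of 18 lymphocyte markers and PTPRC, in CPM, in each library of culture+EVs, culture and fresh tissue; symbols mark libraries 1 to 5. Fresh 3 (triangle) has the highest ADAM28 level, 11.4 CPM, and the lowest marker sum in fresh tissue, 24.6 CPM, while fresh 5 has the highest marker sum, 64.5 CPM.

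Marker transcripts of other cell types changed as well, and whether cell numbers did was not tested. EPCAM, a surface protein of epithelial cells, had 289 to 577 CPM in culture+EVs, 357 to 515 CPM in culture and 467 to 634 CPM in fresh tissue, and did not pass the test in culture (log2 fold change -0.30, adjusted p = 0.169) or in culture+EVs (-0.24, adjusted p = 0.272). In culture against fresh tissue, 5 of 10 epithelial, 5 of 5 basal cell, 3 of 12 macrophage, 3 of 3 granulocyte, 3 of 10 smooth muscle and fibroblast and 1 of 6 clear cell markers tested rose, while 2 clear cell markers and 7 of 8 sperm and germ cell transcripts fell and 1 rose. Among the granulocyte markers, S100A8 and S100A9 reached 17818 and 18802 counts in a library, while MPO and CSF3R reached at most 11 and 8. Macrophage markers, relevant to CD52, summed to 67.1 to 138 CPM in culture+EVs and 75.0 to 186 CPM in culture. In fresh tissue they summed to 42.8 to 80.3 CPM.

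Relatives of the 7 genes, and other proteins known to coat sperm, were then taken by family. Of 100 such genes listed, 57 were tested, and in culture against fresh tissue 25 fell (43.9%) and 18 rose (31.6%), beside 25.6% lower and 28.7% higher over all genes. Their median log2 fold change was -0.67, against 0.04 over all genes tested. In culture+EVs against fresh tissue 26 fell and 19 rose (median -0.80, against 0.01 over all genes). None of the 57 passed in culture+EVs against culture. The list was chosen with earlier results of these libraries known and nothing is taken as particular to it.

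Carboxylesterase and colipase genes, the relatives of CES5A and CLPSL2, fell in all 5 tested (median -2.61). CLPSL1, another colipase-like gene, had 0 to 1.30 CPM in culture+EVs and 0.160 to 3.89 CPM in culture, against 40.8 to 73.7 CPM in fresh tissue. Its log2 fold change of culture against fresh was -5.35 ± 0.74 (adjusted p = 2.47e-05, edgeR), or -6.10 without culture 2. CES1, a broad-specificity esterase abundant in liver, fell by 4.32 ± 0.70 on the log2 scale. CES2, an intestinal and hepatic esterase, and CES3 showed smaller changes, -1.98 ± 0.35 and -2.01 ± 0.36.

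Among CRISP and other CAP-domain genes, 2 fell, 3 rose and 2 did not pass. GLIPR1L2 fell (-2.02 ± 0.22), while GLIPR2 (3.24 ± 0.43), the peptidase inhibitor gene PI15 (3.50 ± 0.77) and CRISPLD2 (2.29 ± 0.54) rose in culture against fresh tissue. The PI15 value was 2.60 without culture 2. Among PATE and other Ly6/uPAR-domain genes, 7 fell, 4 rose and 4 did not pass. PATE1, of the same family as PATE3, had 0.984 to 38.4 CPM in culture+EVs and 3.38 to 13.1 CPM in culture, against 148 to 666 CPM in fresh tissue, with a log2 fold change of -6.13 ± 0.89 for culture against fresh. For culture+EVs against fresh it was -5.32 ± 0.85, or -6.55 without culture+EVs 5. LYPD6 (-3.99 ± 0.46), which encodes a modulator of Wnt signalling, and CD59 (-1.07 ± 0.17), a GPI-anchored complement inhibitor that sperm acquire, fell in culture. PLAUR, the urokinase receptor of the same fold, rose 24.2-fold (4.59 ± 0.50).

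Of ADAM genes, 1 of 12 fell, 5 rose and 6 did not pass in culture against fresh tissue. ADAM23, a catalytically inactive member like ADAM7, fell by 4.84 ± 0.33 on the log2 scale (adjusted p = 2.96e-08, edgeR). The proteolytic members ADAM9 (2.70 ± 0.21), ADAM17 (1.20 ± 0.11), which sheds TNF and EGF-family ligands, and ADAM12 (2.82 ± 0.31) rose. Of the other sperm-coating proteins of the duct, 10 of 18 fell and 6 rose. ELSPBP1, a fibronectin type II protein that binds sperm, had 20.1 to 103 CPM in culture+EVs and 34.4 to 103 CPM in culture, against 2386 to 5975 CPM in fresh tissue (log2 fold change -6.02 ± 0.47 for culture against fresh). The beta-defensin gene DEFB129 (-6.46 ± 0.58) and PEBP4 (-5.10 ± 0.47) fell, and CD109 (2.53 ± 0.21), a GPI-anchored protein, rose.

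**Figure D5:**
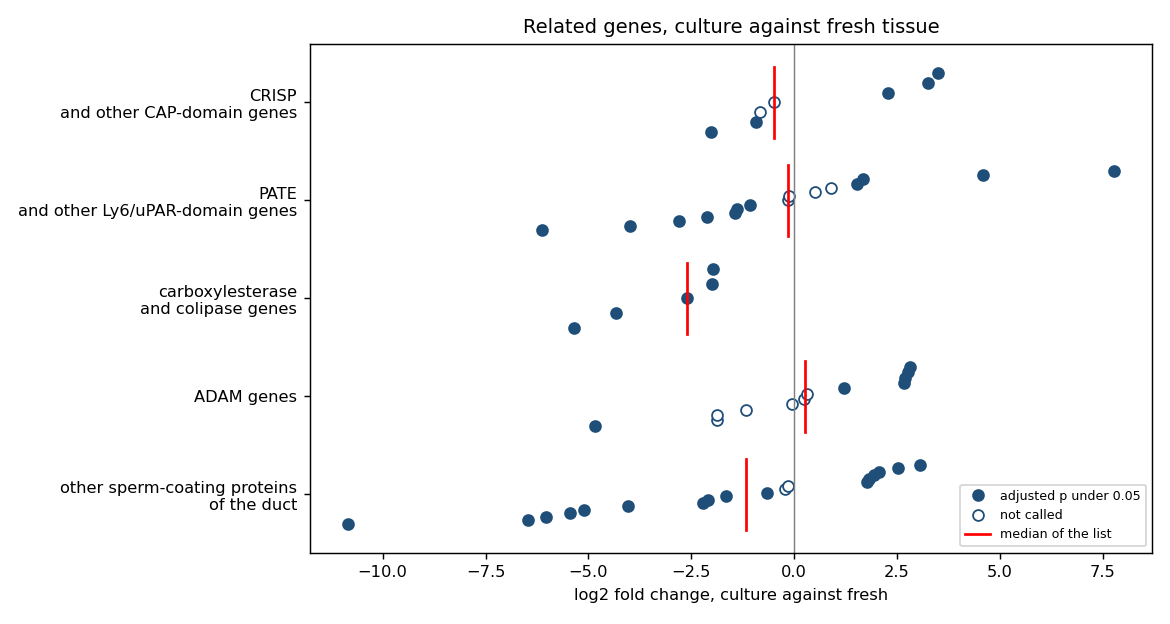
Log2 fold change of culture against fresh tissue for 57 tested relatives and other sperm-coating genes, 1 point a gene, filled where the adjusted p is under 0.05, with each list's median in red. All 5 carboxylesterase and colipase genes lie left of 0, whereas 5 of 12 ADAM genes lie to the right as filled points.

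Several of the 7 genes lie next to relatives in the cat genome (gene order from RefSeq, assembly F.catus_Fca126_mat1.0, since no source used here names the build behind the counts). Taking 2 protein-coding genes on each side gave 25 neighbours, of which 20 were tested. In culture against fresh tissue 11 of the 20 fell and 1 rose, and in culture+EVs against fresh 12 fell and 1 rose, beside 25.6% lower and 28.7% higher in culture and 25.5% lower and 27.4% higher in culture+EVs over all genes tested. PATE1, an uncharacterised gene (LOC123380391), PATE3 and the ciliary gene HYLS1 stand in that order. LOC123380391 fell by 4.60 ± 0.60 and HYLS1 by 2.88 ± 0.26 on the log2 scale in culture. CES1 adjoins CES5A, and ARMC12 and CLPSL1 flank CLPSL2, where ARMC12, needed in mouse sperm for the mitochondrial sheath, had a log2 fold change of -4.05 ± 0.35. FKBP5, a steroid receptor co-chaperone just beyond ARMC12, had -0.96 ± 0.17. UBXN11, beside CD52, had -2.22 ± 0.31.

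ADAM7, ADAMDEC1, ADAM28 and STC1 follow one another, and their values differed. ADAM7 was 28.6-fold lower in culture than in fresh tissue. ADAMDEC1, a secreted relative, did not pass the test (-1.88 ± 1.32, adjusted p = 0.242, edgeR) and, like ADAM28, had its highest level in fresh 3, at 5.90 CPM. Without fresh 3 its value was -0.59. STC1, which encodes the hormone stanniocalcin, rose (5.55 ± 0.50, adjusted p = 3.65e-07), with 22.9 to 80.8 CPM in culture+EVs, 23.9 to 81.9 CPM in culture and 0.482 to 1.79 CPM in fresh tissue. Within the PATE, CRISP, carboxylesterase and ADAM groups, reads of similar copies may have been split or shared, since no source used here says how multiply mapping reads were treated. Without culture 3, 31 of the 31 named relatives, neighbours and markers kept their sign and their side of the threshold in culture against fresh. Most of them were named for a small p in these data, which left little room for a call to change, so nothing is read from that count. UBXN11 moved most, with -2.76 in place of -2.22, followed by CES1, with -4.82. In the whole lists without culture 3, the relatives were 26 lower and 19 higher of 57 and the ADAM genes 2 lower and 6 higher of 12. PATE and other Ly6/uPAR-domain genes were 6 lower and 4 higher of 15, and other sperm-coating proteins 11 lower and 6 higher of 18. The CRISP list and the carboxylesterase and colipase list kept their counts. The neighbours were 11 lower and 2 higher of 20. Lymphocyte and principal cell markers kept their counts. Epithelial markers were 4 higher and 1 lower of 10, granulocyte markers 2 higher of 3, smooth muscle and fibroblast markers 5 higher of 10, clear cell markers 1 higher and 1 lower of 6, and sperm and germ cell transcripts 1 higher and 8 lower of 9.

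For each of the 7, the 3 genes closest in profile over the 15 libraries were found by the root mean square difference of log2 CPM after centring each gene. The search covered 12366 candidates (12367 for CLPSL2 and ADAM28) of the 18038 genes tested. Genes known only by a LOC identifier, such as LOC101081299 and LOC123380391, were not candidates, so a closer gene among them would have been missed. The measure mainly follows the difference between explants and fresh tissue. It is also scaled by how far a gene moves: its median over all candidates was 1.22 for CRISP1, 1.61 for CES5A, 2.15 for ADAM28, 2.57 for ADAM7, 3.48 for CD52, 3.95 for CLPSL2 and 4.56 for PATE3. CRISP1 had NIPAL2 at 0.18, the ceramide synthase gene CERS6 at 0.23 and ENPP4 at 0.25. CD52 was closest to the beta-defensin gene DEFB112 at 0.38, then PNMA3 at 0.51 and WFDC9 at 0.63. ADAM7 was closest to the defensin genes DEFB134 at 0.50 and DEFB108B at 0.57 and to its relative ADAM23 at 0.57. CLPSL2 had RNASE11 at 0.52, and CD52 and WFDC9 at 0.67 each, and was the only one of the 7 with another of the 7 among its closest 3. CLPSL2 and ADAM28 themselves had a mean log2 CPM under 1 and could not be returned as closest genes. PATE3 was closest to RNASE12 (1.16), SLC26A7 (1.21) and RNASE11 (1.35), and CES5A to PAPLN (0.77), EPHA3 (0.78) and LY6H (0.78). ADAM28 had SHISA2 at 1.43, ME1 at 1.53 and LY96 at 1.56.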

How the data were processed

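Gene counts were deposited by the authors as 1 table of whole-number counts per gene for 15 libraries, 5 a group, with no normalization; 0 columns were left unmapped. Per the labels' protocols, a Qiagen kit yielded the RNA and a stranded TruSeq mRNA kit the libraries. Tools listed, without roles, in the submitters' processing notes are StringTie 2.1.3b, Bowtie2 2.3.4.1, HISAT2 2.1.0 and Trimmomatic 0.38; build, annotation, counting tool, strand setting and treatment of multiply mapping reads were given nowhere in the sources used here, so a gene and an overlapping antisense gene may not be told apart.

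From the counts, all 15 libraries entered 1 edgeR 4.0.16 fit (R 4.3.3; filterByExpr, TMM scaling, quasi-likelihood test, 2-sided, Benjamini-Hochberg adjusted p under 0.05 over 18038 genes), with group as its only term and 12 residual degrees of freedom before shrinkage. Standard errors are those of the fitted log2 fold change. The steps were also run on simulated data, which does not show that the test is calibrated for these libraries. Alternatives used DESeq2 1.42.0 and limma 3.58.1. The 7 genes and the family and marker lists were chosen with earlier results of these data known. Named beyond the 7 were the 4 genes of smallest p in each family list (culture against fresh), 3 closest profiles a gene, and PTPRC, CD3E and EPCAM. Closest profiles were sought among genes with a symbol other than a LOC identifier and a mean log2 CPM of 1 or more. The few others were named after their values were seen. Neighbours were taken by position after the data were seen, and named where their adjusted p was under 0.001 in both comparisons with fresh tissue, plus ADAMDEC1.

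Replicate numbers are in the labels. Same-numbered libraries deviated together from their group means in culture+EVs and culture (r across genes 0.18 to 0.60, 5 of 5 over 0.1) and in culture+EVs and fresh tissue (0.24 to 0.36, 5 of 5), and less clearly in culture and fresh tissue (0.03 to 0.34, 4 of 5); the pairing comes from these data, not from a stated shared animal. Sequences of proteins and promoters were not used here.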

Additional observations from a re-analysis of the deposited data

Results flagged for a closer look

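Each group of 5 libraries was searched for a highest or lowest library far from the others, by Dixon's criterion at 95%, on the CPM and the log2 scale. Of 42 such checks over the 7 genes, 5 met it. Chance alone gives about 1 in 20 for independent, normally spread values. The same libraries were checked on both scales and several counts were near 0, so no excess over chance is read from the 5. ADAM7 had 16.4 CPM in culture+EVs 4, far below the next vesicle-treated library at 98.8 CPM. ADAM28 had 11.4 CPM in fresh 3, with the next fresh library at 0.979 CPM, and 8.92 CPM in culture 4, with the next culture at 2.48 CPM. CLPSL2 had 0.118 CPM in culture 1 on both scales, which is 3 counts where the other 4 cultures had 0.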

How the results depend on the processing

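In culture+EVs against culture no gene was called in any setting run, and 55 to 592 genes had an unadjusted p under 0.05. The replicate block changed no call among the 7 genes or the named relatives and neighbours. It called 47 of the 57 family genes in each comparison with fresh tissue, against 43 in culture and 45 in culture+EVs, and 10438 genes in culture against fresh and 10283 in culture+EVs against fresh. For CES5A it gave -0.36 ± 0.35 in culture+EVs against culture. The 6 genes of the 7 that lay lower in explants did so in every setting. Over the settings, 8671 to 11090 genes were called in culture against fresh and 8833 to 11789 in culture+EVs against fresh. Of the named relatives and neighbours, 55 of 56 gene comparisons kept sign and call. Most of these genes were named for a small p, which left little room for a call to change. Upper-quartile scaling moved the median of all genes in culture+EVs against fresh to -0.09, against 0.01.

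In culture+EVs against culture the ADAM7 log2 fold change, 0.00 as reported, was negative under relative log expression scaling (-0.0100), upper-quartile scaling (-0.0054), DESeq2 (-0.0098), limma-voom with quality weights (-0.0103), the replicate block (-0.11) and a fit of those groups alone (-0.0022). Limma-voom gave 0.38 for CES5A and -0.12 for ADAM28 in that comparison. It gave -9.46 for CLPSL2 in culture against fresh, and in culture+EVs against fresh 2.51 for ADAM28 (adjusted p = 0.0878) and 0.10 for ADAMDEC1, against -1.39. It also moved CES1 to -5.03 and CLPSL1 to -6.13 in culture against fresh. The causes were not tested. For ADAM28 in culture against fresh, reported as 0.10, limma-voom gave 2.64 (adjusted p = 0.0891) and the replicate block 1.27 (0.470); in culture+EVs against fresh the block gave 1.48 (0.377).

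Leaving out 1 library at a time, culture+EVs against culture ranged from 0.07 to 0.48 for CRISP1, -0.48 to 0.12 for CD52, -0.58 to 0.19 for PATE3, -0.56 to 0.13 for CES5A, -0.22 to 0.27 for ADAM7 and -0.15 to 1.26 for ADAM28. CLPSL2, near the floor in both cultures, has no value there. Its fitted values against fresh tissue depend on the prior count and are neither folds nor bounds: -12.56 (without culture 1, where no count is left) to -9.72 in culture and -10.25 (without culture+EVs 1) to -8.74 in culture+EVs. ADAM28 ranged from -1.0 to 2.66 in culture against fresh (adjusted p at least 0.0671) and from -0.041 to 2.83 in culture+EVs against fresh (at least 0.0551). LOC123380391 in culture+EVs against fresh was -4.78 without culture+EVs 5, against -4.13, and PI15 2.86 without culture+EVs 2, against 3.57. Depth limits CLPSL2 and PATE3 in explants and ADAM28 throughout.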

Other observations

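A neighbour of CRISP1, the uncharacterised gene LOC101081299, took 1.07 to 1.58% of all counts in fresh libraries by itself. It took 0.0175 to 0.0442% in culture+EVs libraries and 0.00907 to 0.0508% in culture libraries. Its log2 fold change was -5.51 (adjusted p = 4.03e-08) for culture+EVs against fresh and -5.61 ± 0.39 (adjusted p = 3.51e-08, edgeR) for culture against fresh. LOC123380391, between PATE1 and PATE3, took 0.00459 to 0.0600% of counts in culture+EVs libraries, 0.00701 to 0.0289% in culture libraries and 0.273 to 0.544% in fresh libraries. SPINT4, a Kunitz-type protease inhibitor gene of the sperm-coating list, had no count in either set of explants and 1129 counts in fresh tissue. Against a floor of 3 counts over the group it was at least 418-fold lower in culture+EVs and at least 388-fold lower in culture. SPINT4 was named after its values were seen.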
